A study of Mus musculus with 3 samples.

Results

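The genes described here are 10 markers used to define mesenchymal stem cells: Cd44, Thy1, Eng, Ly6a, Nt5e, Vcam1, Alcam, Cd34, Mcam and Nes. They were chosen by name and matched by Entrez gene ID, and all 10 were found among the 16621 gene IDs with reads in any library. Poly(A) RNA was sequenced from tendon derived stem cells of the tail, progenitor cells grown out of tendon in culture, from C57BL/6 mice aged 10 weeks. There were 3 libraries, all of untreated, confluent cells at passage 4: 1 from wild-type mice (WT) and 2 from mice with the ΔF508 mutation of Cftr, the in-frame loss of a phenylalanine from an anion channel (DF508 replicates 1 and 2). Nothing in the labels tells if the DF508 replicates are different animals or cultures, if animals were pooled, or if the mutation is homozygous; p-values therefore reflect the spread of these samples alone, possibly technical. With a single WT library, its spread had to be taken as equal to that of the DF508 pair.

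Mesenchymal stem cells have no single defining gene and are recognised by a set of cell surface proteins together with the absence of blood and endothelial proteins. In human cultures the customary positive set is CD105 (Eng), CD73 (Nt5e) and CD90 (Thy1). In the mouse, Sca-1 (Ly6a), CD44 and CD106 (Vcam1) are often used as well, and CD34, which human cultures usually lose, is carried by many mouse stromal cells. CD166 (Alcam) and CD146 (Mcam) are adhesion molecules, the second associated with perivascular cells. Nestin (Nes) is not a surface protein but a cytoskeletal filament, used as a marker of neural and perivascular progenitors.

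The total estimated count per library was 5241826 to 5298326. Tendon genes were abundant: the matrix protein Thbs4 stood at 5824 to 6460 FPKM (fragments per kilobase of transcript, scaled by the authors to the depth of the library), and the tendon membrane protein Tnmd at 70.2 to 145 FPKM, while the tendon transcription factor Scx had 1.88 to 2.71 FPKM. Of 10 endothelial genes 5 were listed in no library, among them Pecam1 and Cdh5, while the receptor Tek had 77, 69 and 65 counts in WT and DF508 replicates 1 and 2 and the secreted factor Egfl7 had 22, 15 and 12. The blood cell phosphatase Ptprc had 11 counts in WT and 9 and 50 in DF508 replicates 1 and 2. The summed level of 13 myeloid genes was 96.7, 151 and 689 CPM (counts scaled to the library total) in the same order, and DF508 replicate 2 was the highest for all 13. Fewer cells of a type and less RNA per cell cannot be told apart in bulk RNA. Xist was present in all 3 libraries at 67.5 to 78.9 FPKM, and the Y-linked genes had at most 1 count.

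The markers fell into an abundant and a scarce set. Thy1, Vcam1, Ly6a, Cd44, Cd34 and Eng were above 20 FPKM in every library, and Alcam, Nes, Mcam and Nt5e below 4 FPKM. The 10 together held 0.228%, 0.24% and 0.229% of the counts of WT and DF508 replicates 1 and 2.

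Thy1 encodes CD90, a small glycoprotein held in the membrane by a lipid anchor. It was the highest of the markers per length, with 377 FPKM in WT and 306 and 373 FPKM in DF508 replicates 1 and 2. Its rank by FPKM was 150 among the genes listed in WT, and 172 and 146 in the DF508 libraries. Vcam1, whose protein binds the integrin alpha4 beta1 on leukocytes, followed at 226, 266 and 236 FPKM. Ly6a, the lipid-anchored stem cell antigen Sca-1, had 207, 216 and 186 FPKM, and the hyaluronan receptor Cd44 had 94, 113 and 96.1 FPKM. The sialomucin Cd34 stood at 51.1, 53.9 and 55.2 FPKM. Eng, the endoglin that assists TGF-beta and BMP receptors, was the lowest of this set at 26.4, 26.8 and 22.3 FPKM. Over the 3 libraries the ranges of these 6 genes did not overlap between neighbours in the order, so the order was the same in each.

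The scarce set began more than an order of magnitude lower in WT. Alcam had 1.26, 3.34 and 2.33 FPKM, and Nes had 1.43, 2.22 and 1.38 FPKM, so the 2 ranges overlapped and their order turned between WT and the DF508 libraries. Mcam had 1.17, 1.25 and 0.26 FPKM. Nt5e, whose protein CD73 makes adenosine from AMP outside the cell, was the lowest marker, with 8 counts in WT and 10 and 2 in DF508 replicates 1 and 2. Its level of 0.42, 0.53 and 0.11 FPKM overlapped the range of Mcam and lay in the lowest 15.9% of listed genes in every library. Of the customary human set of Thy1, Eng and Nt5e, the transcripts of Thy1 and Eng were therefore readily measured, and that of Nt5e was close to the floor of 3 counts that a count of 0 allows.

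**Figure D1:**
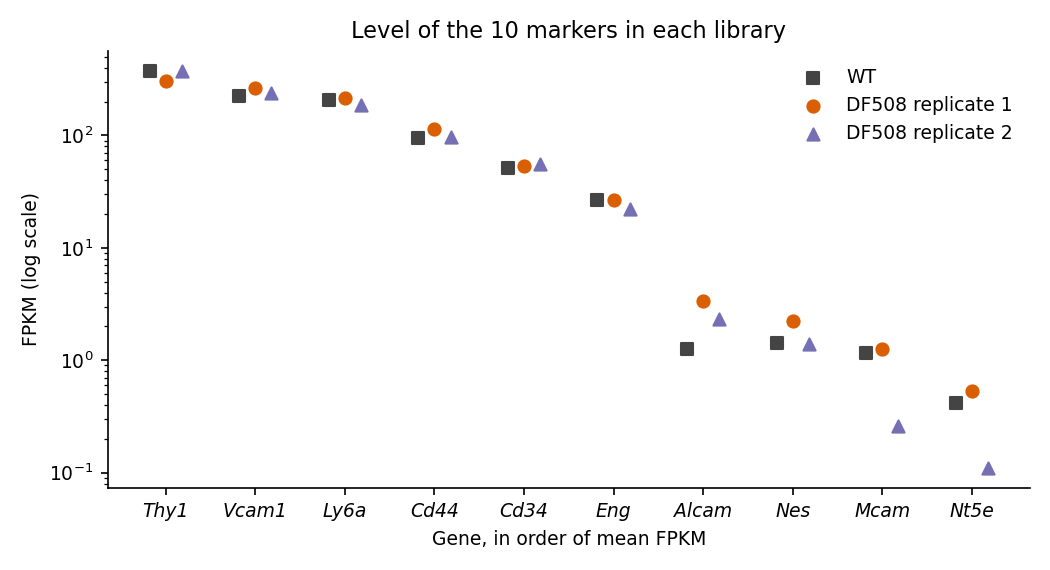
FPKM of each marker (log axis) in the WT library (squares) and DF508 replicates 1 (circles) and 2 (triangles), in order of mean level. Thy1 to Eng lie between 22.3 and 377 FPKM, and Alcam to Nt5e between 0.11 and 3.34 FPKM; each point is 1 library and there is no error bar.

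The sequence upstream of the start of transcription was described for the markers in the reference table, because abundant and scarce markers differed there in CpG content. The RefSeq promoter table (GRCm38.p6) matched 7 of the 10 genes, not Thy1, Vcam1 or Ly6a, and the 250 bases upstream of the start were read. In Cd34, Cd44 and Eng these windows held 46.4%, 56.4% and 62.4% G and C, with CpG at 0.45, 0.26 and 0.17 of the number expected from base content. In Nes, Alcam, Nt5e and Mcam they held 58.8%, 69.2%, 72% and 73.6%, with CpG at 0.69, 0.74, 0.65 and 0.74 of the expected number. The CpG ratios of the abundant and the scarce markers did not overlap, while for G and C content Eng lay above Nes. The median G and C content over all 32851 windows in the table was 52.4%. The GC box (GGGCGG, either strand, overlaps counted) was found in each of the 4 scarce markers, with 2 to 5 matches, and in none of the 3 abundant ones; 32.7% of all windows held it. The CCAAT box (CCAAT, either strand) was found in Alcam alone of the 7, against 33.8% of all windows, and the TATA box (TATAAA, either strand) in none, against 12.4%. With 7 genes, and a contrast that was seen before it was described, this is a description. No CpG ratio over all windows was computed, and a match of letters is not a binding site. The windows of an abundant marker, Cd34, and of Alcam, the scarce marker with the largest fitted fold change, are shown 5′ to 3′ on the strand of the gene, with the CCAAT and GC box matches in capitals.
Cd34, chr1:194938571-194938820, plus strand, GRCm38.p6: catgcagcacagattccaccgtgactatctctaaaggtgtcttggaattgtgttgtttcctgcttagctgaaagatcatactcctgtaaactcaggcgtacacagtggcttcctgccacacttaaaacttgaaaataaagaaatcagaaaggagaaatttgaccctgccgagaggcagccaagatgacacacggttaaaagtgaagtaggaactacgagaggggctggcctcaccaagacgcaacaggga
Alcam, chr16:52453082-52453331, minus strand, GRCm38.p6: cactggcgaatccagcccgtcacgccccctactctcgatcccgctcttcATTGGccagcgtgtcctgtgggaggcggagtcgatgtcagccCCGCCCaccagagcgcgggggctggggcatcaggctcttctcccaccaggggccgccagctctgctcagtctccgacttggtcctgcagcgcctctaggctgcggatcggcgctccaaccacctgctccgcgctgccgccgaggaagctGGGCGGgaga

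The comparison of DF508 with WT asked whether the mutant tendon cells carried the marker transcripts at another level. No marker passed the threshold of an adjusted p of 0.05 (edgeR's quasi-likelihood test, Benjamini-Hochberg adjustment over 12888 genes). All 10 were tested, and 1.39% of all genes tested passed, 0.489% higher and 0.9% lower in DF508. At an unadjusted p under 0.05 there was 1 marker, Alcam, where 11.9% of all genes were. Of the fitted log2 fold changes 5 were positive and 5 negative. Their median was -0.02, beside 0.01 over all genes, and the median of their absolute values was 0.17, beside 0.18. For the 6 abundant markers the 95% intervals of the fitted fold of DF508 over WT lay within 0.72 to 1.3, which holds under the assumption that WT varies like the DF508 pair. An exact permutation test of 1 library against 2 cannot give a two-sided p below 0.333. The calls over all genes, 179, fell away under several settings: no gene passed with library totals as the scale, without a filter on low counts, or on FPKM, so each single call named further on ends there.

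**Figure D2:**
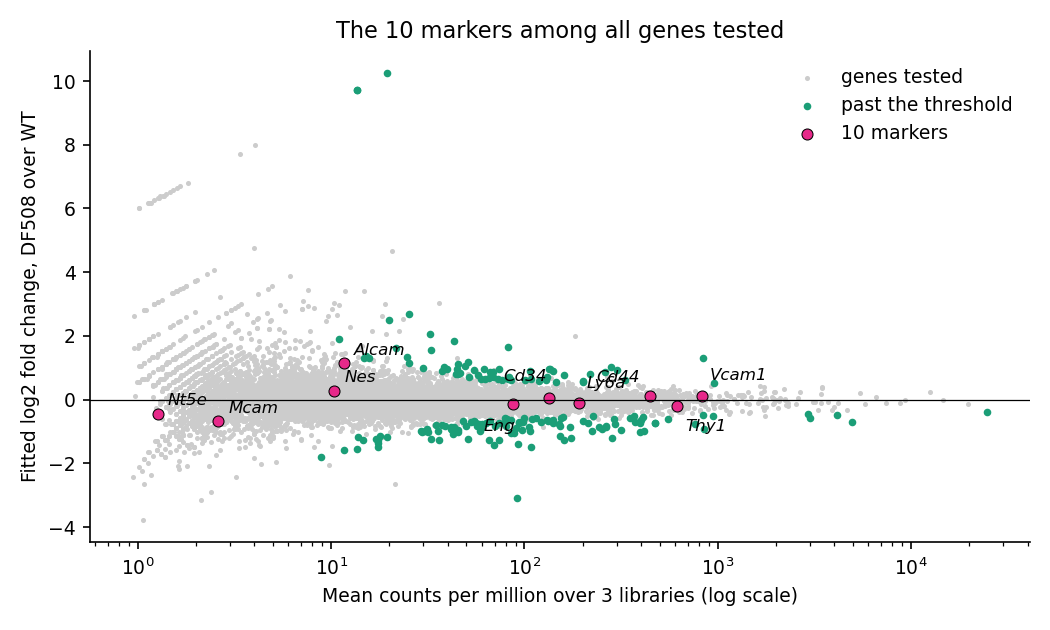
Fitted log2 fold change of DF508 over WT against the mean CPM of the 3 libraries (log axis) for the 12888 genes tested. The 10 markers (labelled) lie among the genes that did not pass, with Alcam the highest at 1.14 and Mcam the lowest at -0.67, and the 179 genes past the threshold are in green.

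More markers differed between the DF508 libraries than between either of them and WT. The exact 95% interval of the ratio of DF508 replicate 2 to replicate 1, which covers counting error only, left out 1 for 9 of the 10 markers, the exception being Cd34, where 17.2% of all genes tested did so. For DF508 replicate 1 over WT it left out 1 for 5 markers (25% of all genes) and for replicate 2 over WT for 4 (27.1%). Intervals of this kind narrow as counts grow, and the abundant markers have high counts. The 9 markers included the 4 of the scarce set, whose intervals ended at 0.971 (Alcam), 0.938 (Nt5e), 0.919 (Nes) and 0.633 (Mcam). No share among genes of like count was computed, so the part of count level was not tested. The median absolute log2 difference between the DF508 libraries was 0.28 for the markers and 0.16 for all genes; between replicate 1 and WT it was 0.25 and 0.20, and between replicate 2 and WT 0.14 and 0.20. WT lay outside the range of the DF508 pair for 5 markers, Alcam, Cd34, Cd44, Thy1 and Vcam1, and for 72.9% of all genes. For Alcam and Cd34, 2 of 10 markers, both DF508 libraries were farther from WT than from each other, as were 41.4% of all genes.

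For Thy1 and Vcam1, the most abundant markers, DF508 replicate 1 lay farther from WT than replicate 2 did. Thy1 had 657 CPM in WT and 533 and 649 CPM in DF508 replicates 1 and 2. Replicate 1 stood below both other libraries, at 0.812 times WT (0.772 to 0.853), and replicate 2 at 0.989 times WT (0.943 to 1.04). The fitted log2 fold change of Thy1 was -0.20 ± 0.12 (SE, adjusted p = 0.598). Vcam1 had 771 CPM in WT and 906 and 804 CPM in the DF508 libraries, so both were above WT, replicate 1 by 1.17 times (1.13 to 1.23) and replicate 2 by 1.04 times (0.998 to 1.09). Its fitted log2 fold change was 0.10 ± 0.10 (SE, adjusted p = 0.764). In DF508 replicate 1 Vcam1 was highest and Thy1 lowest of the 3 libraries, and the ratio of their FPKM was 0.868 there, against 0.599 in WT and 0.632 in replicate 2.

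Cd44 had 417 CPM in WT and 500 and 427 CPM in DF508 replicates 1 and 2, with replicate 1 standing apart at 1.2 times WT (1.13 to 1.27). Its fitted log2 fold change was 0.11 ± 0.12 (SE, adjusted p = 0.793). Cd44 is spliced into a standard and several variant forms, and the length that RSEM averaged over its 6 annotated transcripts was 4413 bases in WT and 4416 in both DF508 libraries. Cd34 varied least, with 128 CPM in WT and 134 and 138 CPM in the DF508 libraries. The Cd34 ratios to WT were 1.05 (0.946 to 1.17) and 1.08 (0.973 to 1.2), so both DF508 libraries lay above WT, with counting intervals that include 1. Its fitted log2 fold change was 0.05 ± 0.11 (SE, adjusted p = 0.909). An annotated noncoding RNA, Gm16897, overlaps Cd34 and had 20 to 36 counts; the use of strand in counting was not stated, so reads of the overlap cannot be told apart.

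Eng and Ly6a were lowest in DF508 replicate 2. Eng had 91.2 CPM in WT and 92.7 and 77 CPM in DF508 replicates 1 and 2, with replicate 2 at 0.845 times WT (0.738 to 0.966). The fitted log2 fold change of Eng was -0.15 ± 0.13 (SE, adjusted p = 0.739). The annotation of Eng overlaps Fpgs, a folate enzyme gene with 80 to 106 counts. Ly6a had 195 CPM in WT and 202 and 174 CPM in the DF508 libraries, so WT lay between them. Its fitted log2 fold change was -0.09 ± 0.12 (SE, adjusted p = 0.832).

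Ly6a belongs to a cluster of similar genes, and its estimates were not whole numbers: 1031.49 in WT and 1060.85 and 913.3 in the DF508 libraries. Ly6c1, a close relative, had 211, 243 and 150 counts, also not whole before rounding. The sums of both genes were whole, at 1242, 1304 and 1063 counts, so the division of reads between them is RSEM's estimate. Taken as 1 gene, an alternative chosen after seeing the data, they gave a log2 fold change of -0.10 and an adjusted p of 0.839. The abundant relative Ly6e, an interferon-induced member of the family, had 314 CPM in WT and 234 and 232 CPM in the DF508 libraries, a fitted log2 fold change of -0.47 ± 0.10 (SE) that missed the threshold (adjusted p = 0.0621). Of the 10 Ly6 family genes looked up beside Ly6a, 4 were listed in any library, and Ly6c1 and Ly6e were the 2 tested.

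**Figure D3:**
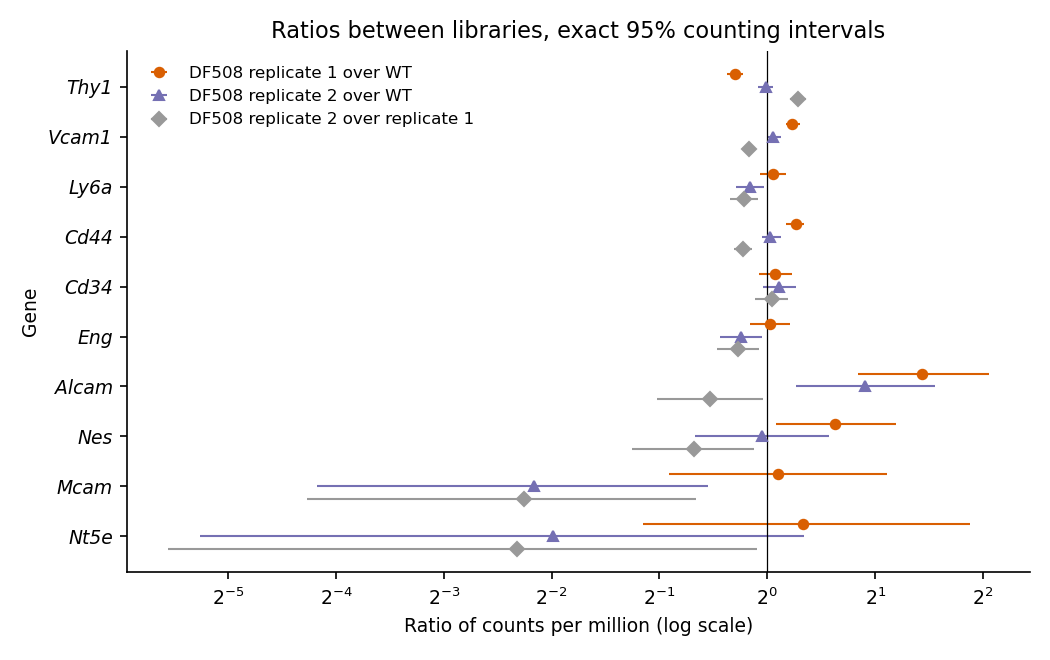
Ratio of CPM between pairs of libraries (log axis) for each marker, DF508 replicate 1 over WT (circles), replicate 2 over WT (triangles) and replicate 2 over replicate 1 (diamonds); bars are exact 95% intervals for counting error only. Alcam is the marker for which both ratios to WT leave out 1 on the same side, and for Mcam and Nt5e the low point is DF508 replicate 2.

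Alcam, a cell adhesion molecule that binds itself and CD6, had the largest fitted fold change of the 10 over both DF508 libraries. In DF508 replicate 2 alone Mcam and Nt5e, at 0.224 and 0.252 times WT, lay farther from WT than Alcam did. Alcam had 6.32 CPM in WT (4.29 to 8.75, exact 95% Poisson interval) and 16.7 and 11.7 CPM in DF508 replicates 1 and 2. Both DF508 libraries were above WT, by 2.7 times (1.79 to 4.15) and 1.87 times (1.2 to 2.94), and the groups did not overlap. Replicate 2 stood at 0.693 times replicate 1 (0.491 to 0.971). The fitted fold of DF508 over WT was 2.21, with a log2 fold change of 1.14 ± 0.33 (SE, 95% interval 0.39 to 1.90). With an unadjusted p of 0.00767 it did not pass after adjustment (edgeR, adjusted p = 0.185; range over all alternatives 0.172 to 1). It missed the rule of a 2-fold difference from WT in both DF508 libraries, which no marker and 2.83% of all genes met (2.17% higher, 0.652% lower). The rule also needs a mean of at least 1 CPM over the libraries used. At 1.5-fold Alcam was the 1 marker that met it, beside 8.06% of all genes (5.65% higher, 2.41% lower). The estimates of Alcam were not whole (33.49, 87.78 and 61.41), so RSEM divided some of its reads with another locus and the level is uncertain. The myeloid genes were highest in DF508 replicate 2 and Alcam in replicate 1; the part of other cells in its level was not tested.

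Among 10958 genes averaging 5 CPM or more, the 3 most like Alcam in their log2 differences from WT were Arxes2, Apcdd1, a Wnt inhibitor of the cell membrane, and Id4, an inhibitor of helix-loop-helix transcription factors. Likeness was the distance between the log2 differences of DF508 replicates 1 and 2 from WT, 1.39 and 0.88 for Alcam. The distances were 0.076, 0.19 and 0.2. None of the 3 passed the threshold (adjusted p = 0.181, 0.426 and 0.304), and likeness over 3 libraries describes these libraries alone.

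Mcam, Nt5e and Nes had few counts, and for each the counting interval of DF508 replicate 2 over replicate 1 left out 1. Mcam had 3.4 CPM in WT (2.01 to 5.37) and 3.62 and 0.762 CPM in DF508 replicates 1 and 2, from 18, 19 and 4 counts. Replicate 1 was at 1.07 times WT (0.53 to 2.16), and replicate 2 was at 0.224 times WT (0.0552 to 0.681). The fitted log2 fold change of Mcam was -0.67 ± 0.82 (SE, adjusted p = 0.822), with a 95% interval of -2.54 to 1.20. Nt5e had 1.51 CPM in WT (0.652 to 2.98) and 1.91 and 0.381 CPM in the DF508 libraries. Its fitted log2 fold change was -0.44 ± 1.07 (SE, adjusted p = 0.922), and the 95% interval of -2.87 to 2.00 included both a 2-fold higher and a 2-fold lower level. DF508 replicate 2 stood at 0.2 times replicate 1 (0.0213 to 0.938) for Nt5e. Nes had 8.87 CPM in WT and 13.7 and 8.58 CPM in the DF508 libraries, with replicate 1 standing above the others at 1.55 times WT (1.06 to 2.29). Its fitted log2 fold change was 0.29 ± 0.35 (SE, adjusted p = 0.82).

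Several genes of Schwann cells, the glia of peripheral nerve, were lowest in DF508 replicate 2, as Mcam and Nt5e were. Sox10, their lineage transcription factor, had 17, 16 and 3 counts in WT and DF508 replicates 1 and 2. The nerve growth factor receptor Ngfr, also used as a stromal stem cell marker and not among the 8 genes summed next, had 11.1, 9.44 and 3.06 CPM. The summed level of the 8 Schwann and neural genes was 14.7, 16.8 and 8.2 CPM. Of the 4 that were tested, 3 were lower in DF508 replicate 2 than in replicate 1, and S100b was higher. Among those not tested, Sox2 (5, 6 and 0 counts) and Cdh19 (7, 5 and 1) were lower there than in replicate 1. Gfap (0, 1 and 2) and Gap43 (4, 1 and 2) were higher. The part of such cells in the levels of Mcam, Nt5e and Nes was not tested.

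**Figure D4:**
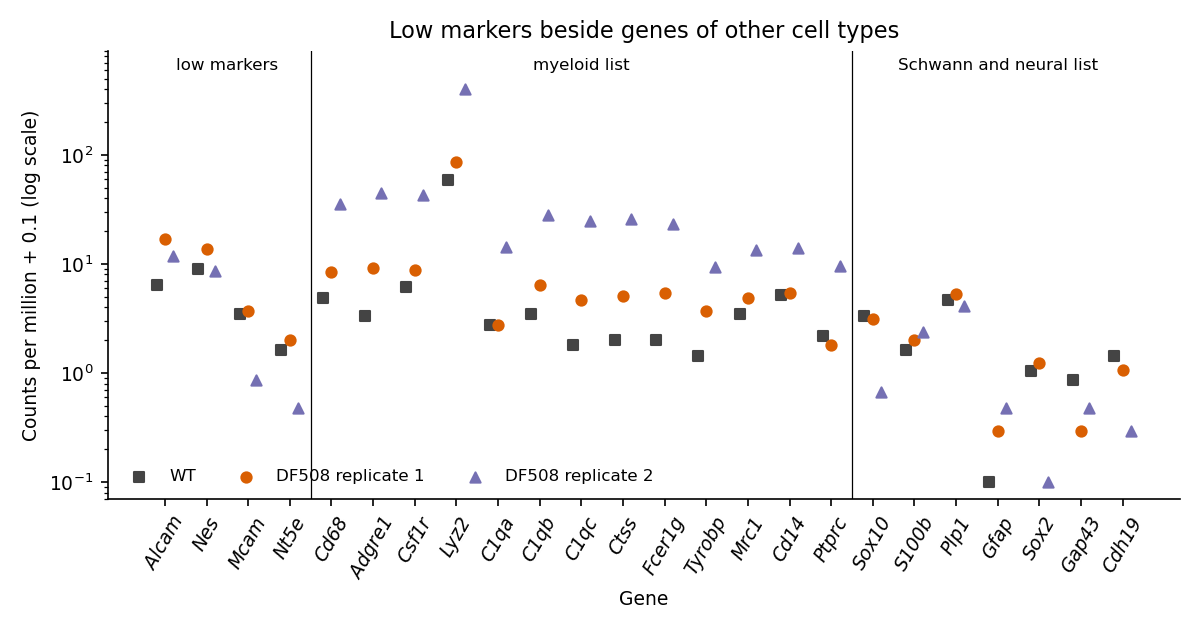
CPM plus 0.1 (log axis) of the 4 scarce markers, the 13 myeloid genes and 7 of the 8 Schwann and neural genes in WT (squares) and DF508 replicates 1 (circles) and 2 (triangles). DF508 replicate 2 is the highest library for every myeloid gene and the lowest for Mcam, Nt5e and Sox10.

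The ligands, receptors and enzymes that work with the markers were followed in lists of partners. Of 72 partner genes 56 were tested, 2 fell, none rose, and their median log2 fold change was 0.02, beside 0.01 over all genes. The 2 are 3.57% of the partners tested, beside 1.39% of all genes tested, or 0.9% for those lower in DF508. The partner lists were chosen with earlier results of these data known, so these shares are a description and not a test. Osteopontin, Spp1, a secreted matrix protein that binds CD44 and integrins, had 6474 CPM in WT and 4291 and 4006 CPM in the DF508 libraries. Both DF508 libraries were below WT, and Spp1 fell 1.61-fold (log2 fold change -0.69 ± 0.08 SE, adjusted p = 0.00813). Mmp14, a membrane protease that can cut CD44 and endoglin from the cell surface, had 636 CPM in WT and 396 and 394 CPM in the DF508 libraries, and fell 1.66-fold (log2 fold change -0.73 ± 0.09 SE, adjusted p = 0.0111). Part of the Mmp14 reads were divided with another locus by RSEM, so its value is uncertain. Of 11 tested genes of the Cd44 list these 2 fell and the other 9 did not pass. The hyaluronan synthase Has2, which makes the ligand of CD44, had 9.63 CPM in WT and 27.9 and 21.2 CPM in the DF508 libraries, and missed the threshold (adjusted p = 0.0588).

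Among the partners of the other markers no further gene passed. Of 10 tested Eng partners Mmp14 alone passed. The co-receptor Tgfbr3 had 113, 114 and 121 FPKM and the ligand Tgfb3 85.2, 112 and 92.7 FPKM. Acvrl1, the receptor that endoglin assists in endothelial cells, had 5.09, 5.54 and 5.22 FPKM. None of 9 tested Vcam1 partners passed: Itgb1, a subunit of its receptor, had 243, 255 and 237 FPKM, while the other subunit, Itga4, had 1.11, 1.45 and 2.16 FPKM. Around Nt5e none of 8 tested genes passed. Entpd1, 1 of the enzymes that make the AMP that CD73 uses, had 8, 7 and 11 counts, close to the level of Nt5e itself. Enpp1, of the same list, had 179, 145 and 102 counts. The adenosine kinase Adk had 64.5, 56.4 and 61.1 FPKM and the nucleoside carrier Slc29a1 49.4, 44.2 and 45.9 FPKM. No call was made among 6 tested partners of Thy1, 7 of Mcam, 5 of Nes, 3 of Alcam and 2 of Cd34. Cd6, the ligand of Alcam on lymphocytes, was listed in no library. The filament protein Vim, with which nestin assembles, had 2901, 2439 and 2312 FPKM, against 1.38 to 2.22 FPKM for Nes.

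Other surface genes used to mark stromal progenitors were looked at for context. Of 23 tested, 1 rose, none fell and 22 did not pass, with a median log2 fold change of -0.09, beside 0.01 over all genes. Of all genes tested 0.489% rose and 0.9% fell. The collagen-binding integrin Itga1 had 92.3 CPM in WT and 141 and 153 CPM in DF508, and rose 1.55-fold (log2 fold change 0.63 ± 0.11 SE, adjusted p = 0.0404). The tetraspanin Cd63, the highest of this list per length, had 609 FPKM in WT and 435 and 463 FPKM in the DF508 libraries, and missed the threshold (adjusted p = 0.0533). Of 8 tested pericyte and smooth muscle genes 4 rose, where 0.489% of all genes tested rose. All gene lists were chosen with earlier results of these data known, so this contrast is a description and not a test. The 4 were Cnn1, Acta2, Lmod1 and Tagln, with a fitted fold of 3.56, 2.47, 2.04 and 2.02. They encode contractile and actin-binding proteins, and the reads of Acta2 were divided in part with another locus. Pdgfrb, a receptor used to mark pericytes and also on the stromal progenitor list, had 87.5, 81.2 and 77 FPKM and did not pass. Of the other pericyte genes, Kcnj8 and Higd1b were listed in no library. Rgs5 had 0, 5 and 2 counts and Abcc9 had 2, 4 and 4, and neither was tested. The proteoglycan Cspg4 had 24.5 CPM in WT and 36.6 and 36.8 CPM in DF508 replicates 1 and 2. Both DF508 libraries were above WT, and Cspg4 did not pass either (edgeR, adjusted p = 0.214). The pericyte marker Mcam had the counts of 18, 19 and 4 given above. Its fitted log2 fold change had a 95% interval of -2.54 to 1.20. This interval includes the values of Lmod1 (1.03) and Tagln (1.01) and not those of Cnn1 (1.83) and Acta2 (1.30). A rise of Mcam like that of Lmod1 or Tagln therefore cannot be told from none. Nes, also used for perivascular cells, had its highest value in DF508 replicate 1. None of the tested myeloid (13), tendon (10), Schwann and neural (4), endothelial (2), blood (4) or muscle (1) genes passed.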

How the data were processed

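Reads were aligned and quantified with Bowtie and RSEM on mm9, per the submitters' processing notes; their versions, the annotation and the use of strand were not stated. Per the file headers, each library's deposited table holds an expected count (RSEM's estimate, not normalized), the FPKM the authors computed, and the gene length in bases, an average over isoforms. A gene missing from a table was set to 0. Symbols came from RefSeq (GRCm38.p6), which matched 16579 of 16621 IDs. Promoter sequences came from RefSeq of the same assembly; no coordinates of the files are given.

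CPM is the expected count over the library total; 3 counts, the floor for a count of 0, are 0.566 to 0.572 CPM. Estimates off a whole number by over 0.005 mark shared reads. Ratios have exact conditional binomial intervals, and single counts exact Poisson ones, at 95%; PCR reads are not independent molecules, so these cover counting error only. Log2 differences between libraries used a prior count of 0.5. Those with 1 DF508 library left out used TMM-normalized CPM and a prior count of 2, which draws low counts closer together. The test was edgeR's quasi-likelihood test on rounded expected counts, with TMM factors of 0.9796 to 1.012, filterByExpr and genotype as sole term: 1 residual and 7.7 prior degrees of freedom, Benjamini-Hochberg over all genes tested. In simulated data, with every library given the spread of this fit, the test called 56% of 2-fold and 92% of 4-fold changes. Each gene had the spread fitted for its level and none of its own, so these shares may not hold for single markers. The changed genes had at least 5 CPM, above the level of Mcam and Nt5e. The SE is the log2 fold change over the root of F.

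The 10 members and all gene lists were chosen with earlier results of these data known. All members are named. Of each list, up to 4 genes past the threshold are named, or otherwise up to 2 by level or as a direct partner. Has2, Entpd1, Enpp1, Cd63, Pdgfrb, Cspg4, Ptprc, Pecam1, Cdh5, Sox10, S100b, Ngfr, Scx and Tnmd were named outside that rule, after their values were seen. So were Rgs5, Abcc9, Kcnj8, Higd1b, Sox2, Cdh19, Gfap and Gap43. Alternatives were other size factors, filters and tools, FPKM with pseudocounts of 1 and 0.1, and each DF508 library left out. Software was DESeq2 1.42.0, limma 3.58.1 and edgeR 4.0.16 under R 4.3.3. Some listed genes are not reported here by name.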

Additional observations from a re-analysis of the deposited data

How the results depend on the processing

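In the 10 alternative fits with a test no marker was called and no fitted fold change changed sign, but Mcam and Nt5e had no value with a mean of at least 50 counts or a mean FPKM of at least 1, and no adjusted p from DESeq2. Markers at an unadjusted p under 0.05 were Alcam alone in 5 of these fits and none in the others (edgeR without a filter, DESeq2's Wald test and limma on FPKM). The log2 fold change of Alcam ranged from 0.75 to 1.19 over them. The count of all genes called, 179, was 63 with DESeq2's Wald test, and 0 with edgeR on library totals alone (1253 genes at an unadjusted p under 0.05), with edgeR without a filter on low counts (1123) and with limma-trend on FPKM (1145, 1159 and 1615 with log2(FPKM + 1), log2(FPKM + 0.1) and no filter); the cause was not tested. With 1 DF508 library left out there is no test, and the log2 fold change ranged from -0.01 to 0.22 for Cd44, -0.21 to 0.01 for Ly6a, -1.34 to 0.24 for Nt5e, -1.76 to 0.05 for Mcam and -0.09 to 0.57 for Nes, so these 5 directions rest on 1 library. The 2-fold rule, met by 0 markers, was met by 1 marker without DF508 replicate 1 (Mcam), 1 without DF508 replicate 2 (Alcam) and 1 at a fold of 1.5 (Alcam). The count of markers farther from WT than the DF508 pair from each other, 2, was 1 with TMM-normalized CPM (Alcam). No paired analysis was possible because WT has 1 library and its label carries no replicate number. Nt5e and Mcam had at most 10 and 19 counts in a library.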
